A study of Mus musculus with 6 samples.

Results

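Kruppel-like factors are zinc finger transcription factors that bind GC-rich and CACCC sequences in promoters, and 8 of their genes were followed here across 3 mouse tissues. The genes were Klf2, Klf3, Klf4, Klf5, Klf6, Klf9, Klf10 and Klf13, taken by symbol from the platform annotation as 9 probes of the 20911 named probes and as 8 of the 18532 named genes. They were chosen by family name with earlier log ratios of the same arrays in view, so their ratios are a description and carry no test. Total RNA of epididymis, testis and adipose stromal vascular fraction (SVF, the mixed non-fat cells of adipose tissue) was hybridised in 3 dye swaps on 6 arrays, with 1 RNA sample per tissue and 4 arrays carrying each tissue. Nothing in the labels gives the strain, age, sex or number of mice, a treatment, or the depot of the fat, and the labels name no agent for any of the 3 tissues.

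Each value is a log ratio of the 2 tissues on an array. It was read as log2 of the Cy5 tissue over the Cy3 tissue, which the titles name in that order. The base and direction of the logarithm are not stated in the sources used here, so signs rest on the titles and folds on base 2. With this direction, 8 of 9 measured germ cell markers were higher in testis than in SVF. Likewise 6 of 6 epididymal duct markers were higher in epididymis than in SVF. The sign of the dye-exchanged array (array 2 below) was turned so that both arrays of a pair run the same way. Before turning, Pearson's r between the paired arrays across all probes was -0.86 where testis met SVF, -0.64 where epididymis met SVF and -0.77 where epididymis met testis. Means are given ± SD over the 2 arrays of a dye swap (n = 2 repeat hybridisations of the same RNAs), an error that leaves out differences between animals. The 2 arrays have exchanged dyes, so a dye effect of a gene adds to this SD and cancels in the mean. The rule for calling a gene higher or lower asked for a log2 ratio of at least 1 in size, a 2-fold difference, with 1 sign on both arrays. Signal over background was not analysed here, and in whole tissue a smaller share of a cell type and less RNA per cell cannot be told apart.

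Marker genes followed the tissue labels in part. Of 9 measured germ cell markers, 8 passed the rule toward testis against SVF, and 6 of 6 epididymal duct markers passed it toward epididymis against SVF. Of the SVF markers, 5 of 5 macrophage genes, 5 of 6 mesenchymal progenitor genes and 4 of 6 endothelial genes were lower in testis than in SVF, and in epididymis 5, 3 and 4 of them were. All 4 measured Leydig markers but 3 of 7 Sertoli markers were higher in testis than in SVF. Of 5 smooth muscle markers, 2 were higher in epididymis than in SVF, while 1 (Actg2, 3.62 ± 0.44) was higher and 2 were lower in testis than in SVF. Of 5 adipocyte markers, 3 were lower in testis than in SVF and Lipe was higher (2.01 ± 0.10), and 1 was lower in epididymis. Germ cell markers were also higher in epididymis than in SVF for 6 of 9 genes. Of all named genes, the rule called 20.7% higher and 16.0% lower in testis than in SVF. In epididymis it called 10.2% higher and 8.68% lower than in SVF.

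In this family, Klf2, Klf4, Klf5 and Klf6 encode factors with activating domains that recruit acetyltransferases, Klf3 encodes a repressor that binds CtBP, and Klf9, Klf10 and Klf13 encode factors that bind the corepressor Sin3a. Several are known regulators of endothelial quiescence, epithelial turnover and fat cell differentiation, and Klf4 is known in mouse testis from postmeiotic germ cells and Sertoli cells. The promoters of members whose ratios differed most between tissues are shown first, since the family's own class of binding site lies in them. They come from RefSeq (GRCm38.p6), run from 250 bases before to 50 after the annotated start, and are written 5′ to 3′ on the gene's strand. Capitals mark the GC box, whose letters are GGGCGG, the CACCC box of those letters, and the MEF2 box, each read on both strands, and adjoining or overlapping matches run together. The windows are chr8:72318812-72319111 (plus strand) for Klf2, chr13:5861239-5861538 (plus) for Klf6, chr4:55532426-55532725 (minus) for Klf4 and chr5:64803271-64803570 (plus) for Klf3.
Klf2: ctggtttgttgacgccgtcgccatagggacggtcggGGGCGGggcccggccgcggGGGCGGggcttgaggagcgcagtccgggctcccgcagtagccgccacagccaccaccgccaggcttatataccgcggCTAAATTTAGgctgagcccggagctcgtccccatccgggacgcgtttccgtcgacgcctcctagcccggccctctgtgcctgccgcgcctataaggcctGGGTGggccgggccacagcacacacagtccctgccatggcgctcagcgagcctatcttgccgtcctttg
Klf6: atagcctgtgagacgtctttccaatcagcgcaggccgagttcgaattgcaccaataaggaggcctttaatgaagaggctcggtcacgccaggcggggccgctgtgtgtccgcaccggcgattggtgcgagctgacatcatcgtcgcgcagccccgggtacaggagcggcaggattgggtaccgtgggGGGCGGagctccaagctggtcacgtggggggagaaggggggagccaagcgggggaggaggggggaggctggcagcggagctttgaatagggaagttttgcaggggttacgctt
Klf4: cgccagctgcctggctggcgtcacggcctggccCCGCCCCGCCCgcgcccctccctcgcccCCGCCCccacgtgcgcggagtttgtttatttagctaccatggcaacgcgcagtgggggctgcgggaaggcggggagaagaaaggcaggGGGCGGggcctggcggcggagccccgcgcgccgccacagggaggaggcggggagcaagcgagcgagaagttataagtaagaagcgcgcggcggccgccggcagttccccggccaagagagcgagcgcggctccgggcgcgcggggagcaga
Klf3: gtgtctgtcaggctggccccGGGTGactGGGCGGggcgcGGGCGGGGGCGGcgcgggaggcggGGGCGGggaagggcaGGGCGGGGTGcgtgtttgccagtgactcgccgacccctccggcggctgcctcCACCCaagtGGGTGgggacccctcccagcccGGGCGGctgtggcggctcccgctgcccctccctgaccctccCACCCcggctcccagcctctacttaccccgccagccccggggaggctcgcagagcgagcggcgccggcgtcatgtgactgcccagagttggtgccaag

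The GC box was found in 35.7% and the CACCC box in 57.5% of the 32851 promoter windows in the same table. Klf3 had 6 GC boxes and 5 CACCC boxes, Klf4 had 4 GC boxes, of which 2 share 1 base, Klf2 had 2 GC boxes and 1 CACCC box, and Klf6 had 1 GC box. Klf13 (chr7:63938866-63939165, minus strand) had 3 GC boxes and 1 CACCC box, and Klf9 (chr19:23140976-23141275, plus strand) had 1 CACCC box. The MEF2 box, a site for factors of the Erk5 pathway, was in 3.19% of windows. Among the 6 members with a window, it was found in Klf2, where its first base lies 118 bases before the start. The CCAAT box (CCAAT) was in 37.4% of windows and occurred 4 times in Klf6, 3 times in Klf9 and 2 times in Klf13. The half-site of the cAMP response element (TGACG) was in 20.8% of windows and occurred 1 time each in Klf2, Klf3, Klf4, Klf9 and Klf13. Neither the TATA box (TATAAA, 13.6% of windows) nor the CArG box (1.63%) had a match in these 6 windows. GC content ran from 63.0% (Klf6) to 76.7% (Klf3), against a median of 52.7% and quartiles of 45.7% and 61.7% over all windows. A match describes letters in the window and shows no binding, and windows for Klf5 and Klf10 were not used here.

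The first comparison asked which members distinguish testis from SVF. Klf3, Klf6, Klf10 and Klf2 were lower in testis, Klf5 was higher in testis, and Klf4, Klf9 and Klf13 did not reach the 2-fold rule on both arrays. Of all named genes, 16.0% were lower and 20.7% higher in testis by the same rule, against 4 and 1 of the 8 members. The median of the members was -1.59, beside 0.0043 over all named genes.

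Among the activators, Klf2, known for keeping endothelium and T cells quiescent and for holding back Pparg in mouse preadipocytes, had log2 ratios of testis over SVF of -2.39 on array 1 and -2.33 on array 2. The arrays were close together, and the mean of -2.36 ± 0.05 is a 5.14-fold lower value in testis. Klf6, a factor induced by tissue injury in stellate cells, had gene values of -2.80 and -3.56 (mean -3.18 ± 0.54), 9.06-fold lower in testis. Its 2 probes were both lower in testis on both arrays, with -2.97 and -3.20 for the probe of AF221848 and -2.63 and -3.92 for that of NM_011803. Klf5, which promotes proliferation of epithelial progenitors and acts early in mouse fat cell differentiation, ran the other way with 2.52 and 1.51 (mean 2.01 ± 0.72). It was 4.04-fold higher in testis, with the larger ratio on the array that carried testis in Cy5. Klf4, one of the reprogramming factors and a regulator of epithelial differentiation, had 0.13 and -0.47 (mean -0.17 ± 0.42). Its 2 arrays differed in sign, so no direction was resolved.

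Among the repressors, Klf3, which limits fat cell differentiation in mouse preadipocytes through CtBP, had -3.95 and -3.42 (mean -3.69 ± 0.38). It was 12.9-fold lower in testis, the lowest ratio of the 8 members, and 2.16% of named genes had a lower one. Klf10, the TGF-beta-inducible early gene, had -2.81 and -2.96 (mean -2.89 ± 0.11), 7.40-fold lower in testis. Klf9, which responds to glucocorticoid and thyroid hormone, had -0.78 and -0.64 (mean -0.71 ± 0.10). Klf13, an activator of the chemokine gene Ccl5 in T lymphocytes, had -0.48 and -1.17 (mean -0.82 ± 0.49). Both were below 0 on each array, and Klf13 passed 2-fold on array 2 alone.

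**Figure D1:**
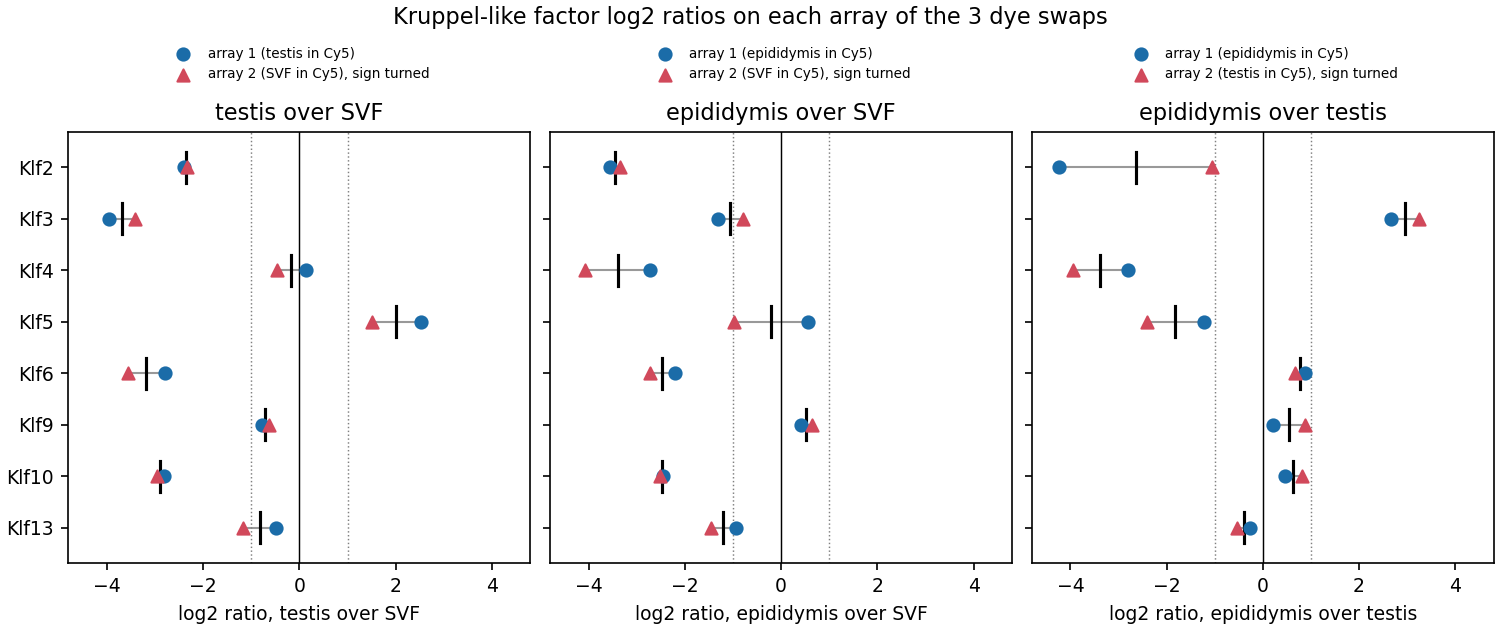
Log2 ratio (horizontal axis) of the 8 members (rows) in testis over SVF, epididymis over SVF and epididymis over testis, on array 1 (circles) and on array 2 with its sign turned (triangles), with the mean as a black bar and dotted lines at 2-fold. Klf2 shows the widest gap, with -4.23 and -1.05 for epididymis over testis, while Klf10 has nearly the same value on both arrays with SVF.

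The second comparison set epididymis against SVF and shares its SVF sample with the first, so the members' values are given side by side and not counted as a repeat. Klf2, Klf4, Klf10 and Klf6 were lower in epididymis, and no member was higher. The rule was met by 8.68% of all named genes in the lower and 10.2% in the higher direction, against 4 and 0 of the 8 members. The median of the members was -1.84, beside 0.071 over all named genes.

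Klf2 had log2 ratios of epididymis over SVF of -3.56 and -3.36 (mean -3.46 ± 0.15), 11.0-fold lower in epididymis, and 1.08% of named genes had a lower mean. Klf4 had -2.71 and -4.09 (mean -3.40 ± 0.97), 10.6-fold lower in epididymis. Both arrays thus placed Klf4 far below SVF in epididymis, while its testis values lay around 0. Klf6 had -2.19 and -2.73 (mean -2.47 ± 0.38) and Klf10 had -2.46 and -2.52 (mean -2.49 ± 0.04). These are 5.52-fold and 5.60-fold lower values in epididymis, and the Klf10 arrays were closer to each other than those of 93.9% of named genes. Klf3 had -1.32 and -0.79 (mean -1.05 ± 0.37) and Klf13 had -0.94 and -1.47 (mean -1.20 ± 0.37), so each was short of 2-fold on 1 array. Klf9 had 0.41 and 0.65 (mean 0.53 ± 0.17), the highest mean of the 8 members. Klf5 had 0.56 and -0.97 (mean -0.20 ± 1.08), with opposite signs on its 2 arrays.

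In the third comparison, of epididymis with testis, Klf3 was higher in epididymis, Klf4, Klf2 and Klf5 were lower, and the other 4 members did not reach the rule. By the same rule 14.3% of all named genes were higher and 18.0% lower in epididymis, against 1 and 3 of the 8 members. The median of the members was 0.078, beside -0.0045 over all named genes, so the family had no common direction here.

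Klf4 had log2 ratios of epididymis over testis of -2.80 and -3.95 (mean -3.37 ± 0.82), 10.4-fold lower in epididymis. Klf5 had -1.23 and -2.41 (mean -1.82 ± 0.84), 3.53-fold lower. Klf3 had 2.67 and 3.24 (mean 2.95 ± 0.40), 7.75-fold higher in epididymis, and 97.6% of named genes had a lower mean. Klf2 had -4.23 and -1.05, so its mean of -2.64 ± 2.25 becomes -1.05 without array 1 and -4.23 without array 2. Only 1.40% of named genes had a larger SD in this comparison. Klf6 had 0.88 and 0.67 (mean 0.77 ± 0.15), Klf10 had 0.46 and 0.81 (mean 0.64 ± 0.24), Klf9 had 0.22 and 0.89 (mean 0.55 ± 0.47) and Klf13 had -0.26 and -0.53 (mean -0.40 ± 0.19). The Klf6 probes differed in size, with 1.06 and 1.18 for the probe of AF221848, which alone would meet the rule, and 0.69 and 0.15 for that of NM_011803. For Klf4, Klf5, Klf6 and Klf13 the gene value of array 1 lay above that of array 2 in all 3 dye swaps. For Klf2, Klf3 and Klf9 it lay below in all 3, and a dye effect was not tested.

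The 3 dye swaps close a loop, so epididymis over testis can also be had through SVF from the other 4 arrays. The sum around the loop (testis over SVF plus epididymis over testis minus epididymis over SVF) is 0 without error, and 92.4% of named genes had a sum of at most 1 in size. For 6 members it lay between -0.14 and 0.39, namely Klf13 (-0.02), Klf6 (0.06), Klf4 (-0.14), Klf10 (0.23), Klf3 (0.32) and Klf5 (0.39). Klf9 had -0.68, close in size to its ratios, and its epididymis over testis was 0.55 directly and 1.23 through SVF. Klf2 had -1.54, larger in size than in 97.5% of named genes. With array 2 of epididymis and testis alone the Klf2 sum was 0.05, and with array 1 alone it was -3.14. Through SVF the Klf2 ratio of epididymis over testis was -1.10, beside -1.05 on array 2.

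**Figure D2:**
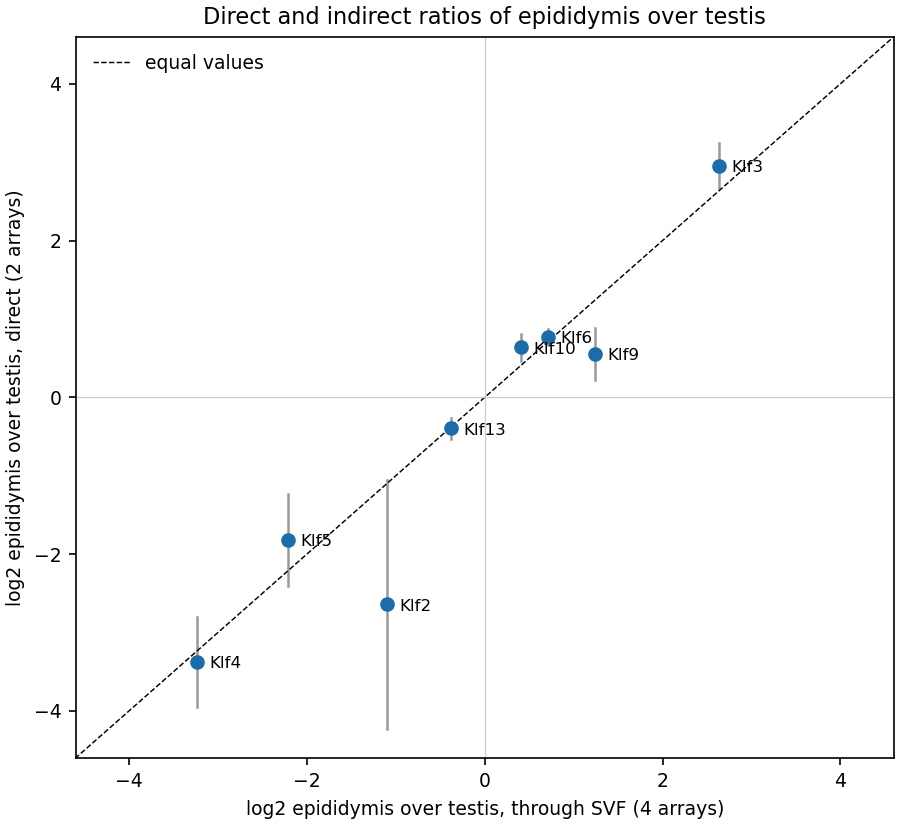
Log2 ratio of epididymis over testis for the 8 members, measured directly (vertical axis, mean of 2 arrays as a point and both arrays as the ends of a line) and through SVF (horizontal axis, from the other 4 arrays), with equal values dashed. Klf2 is the point farthest from equality, at -2.64 directly and -1.10 through SVF, and the upper end of its line is at -1.05.

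A least-squares estimate over the loop gave each gene's relative level in the 3 tissues, as log2 around its own mean. Levels of different genes cannot be compared, because each probe has its own scale. Klf6 stood at -0.57 in epididymis, -1.32 in testis and 1.88 in SVF, and Klf10 at -0.62, -1.17 and 1.79 in the same tissues. Both thus had SVF on top, with epididymis and testis not separated by the 2-fold rule. Klf3 stood at 0.63 in epididymis, -2.21 in testis and 1.58 in SVF, with testis apart and epididymis and SVF not separated. Klf2 stood at -2.03 in epididymis, 0.09 in testis and 1.94 in SVF, and the gap of epididymis to testis rests on the arrays that differed most. Klf4 stood at -2.26 in epididymis, 1.07 in testis and 1.19 in SVF, with epididymis apart and testis and SVF not separated. Klf5 stood at -0.67 in epididymis, 1.28 in testis and -0.60 in SVF, with testis apart and the other two not separated. Klf13 (-0.53 in epididymis, -0.14 in testis and 0.68 in SVF) and Klf9 (0.36, -0.42 and 0.06) spanned 1.21 and 0.78, and no neighbours in their order met the rule.

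**Figure D3:**
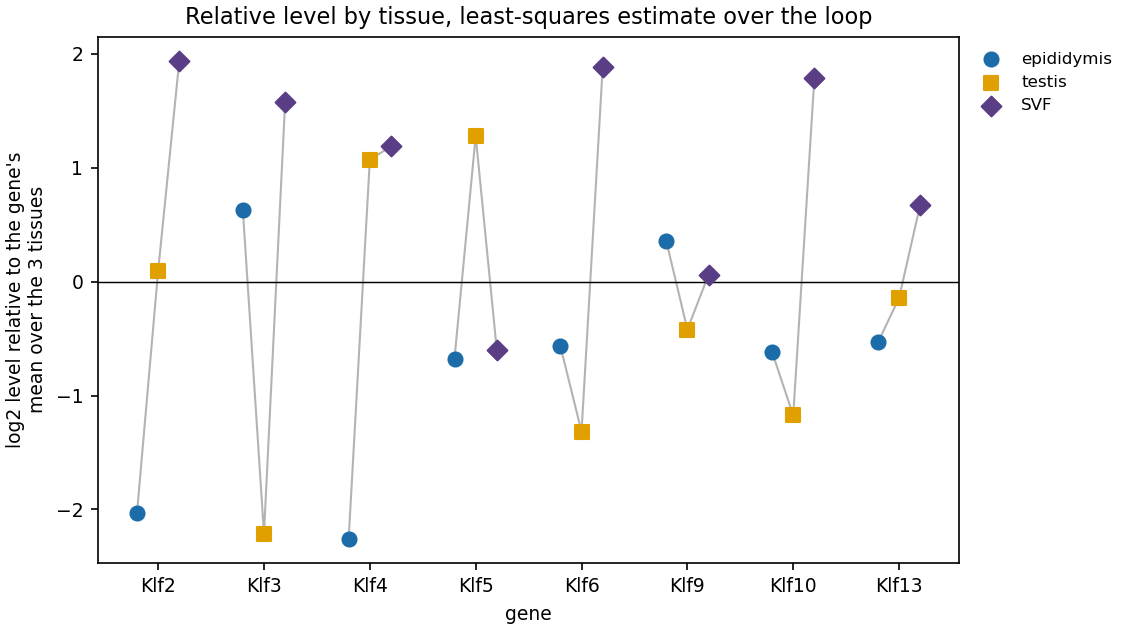
Relative level (vertical axis, log2 around each gene's mean over the 3 tissues, least-squares estimate from 6 arrays) of the 8 members in epididymis (circles), testis (squares) and SVF (diamonds), with grey lines joining a gene's tissues. SVF is on top for Klf6 at 1.88 and Klf10 at 1.79, testis is at the bottom for Klf3 at -2.21 and on top for Klf5 at 1.28, and epididymis is at the bottom for Klf4 at -2.26.

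The members were unlike one another except for Klf6 and Klf10. Likeness was measured as the Euclidean distance between 2 genes over the 6 log2 ratios, where a small value means a like pattern. Differences between the arrays of a dye swap enter it, and no usual distance between gene pairs is given here. Nearest genes are the closest of all named genes, so their distances cannot be set beside those among members. Klf6 and Klf10 were 0.81 apart, the next closest pair was Klf9 and Klf13 at 2.98, and Klf4 and Klf3 were the farthest apart at 10.9. Among all named genes the nearest to Klf10 were Clec3b (0.31), Il16 (0.43) and Slit3 (0.46), and the nearest to Klf6 were H2-M3 (0.38), Csprs (0.45) and Cpne2 (0.48). Klf3 was nearest to Serpinb9 (0.46), Tinagl1 (0.54) and the B cell linker gene Blnk (0.59). Klf5 was nearest to Cdyl2 (0.34), Bcas1 (0.39) and Trim33 (0.60). Klf13 lay near Prps1 (0.27), Atp1b2 (0.36) and Siva1 (0.40), and Klf9 near Tmem174 (0.41), Mrpl19 (0.45) and Tmem62 (0.48). Klf4 and Klf2 had more distant neighbours, with Fndc5 (1.11), Akr1b8 (1.29) and the angiotensin receptor gene Agtr1a (1.40) for Klf4, and Rnd1 (2.51), Cd80 (2.56) and Casp1 (2.97) for Klf2, whose distances include the array at -4.23.

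The other 9 Klf genes were all measured, and most did not reach the rule. Of all named genes, 47.1% met it in at least 1 comparison. Klf16 was lower in testis than in SVF (-1.65 ± 0.02) and higher in epididymis than in testis (1.38 ± 0.06). Klf15, a glucocorticoid-induced regulator of amino acid and fat metabolism, was higher in epididymis than in SVF (1.25 ± 0.13) and than in testis (1.93 ± 0.21). Klf17, a germ cell factor in mouse, was lower in epididymis than in testis (-1.51 ± 0.04), and its ratio of testis over SVF was 1.10 ± 0.32. The other 6, Klf1, Klf7, Klf8, Klf11, Klf12 and Klf14, did not meet the rule in any comparison, with means from -0.77 to 0.64. For Klf11 the near-zero means hide 2 probes of the same accession that disagreed, at -1.23 and -1.19 for testis over SVF on one probe and 0.97 and 1.51 on the other. Of the related Sp factors, which bind the same GC boxes, 6 of 9 were measured (Sp1, Sp4, Sp5, Sp6, Sp7 and Sp8) and none met the rule in any comparison, with means from -1.39 to 1.06. The list medians of testis over SVF were -0.15 for the other Klf genes and -0.40 for the Sp factors.

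**Figure D4:**
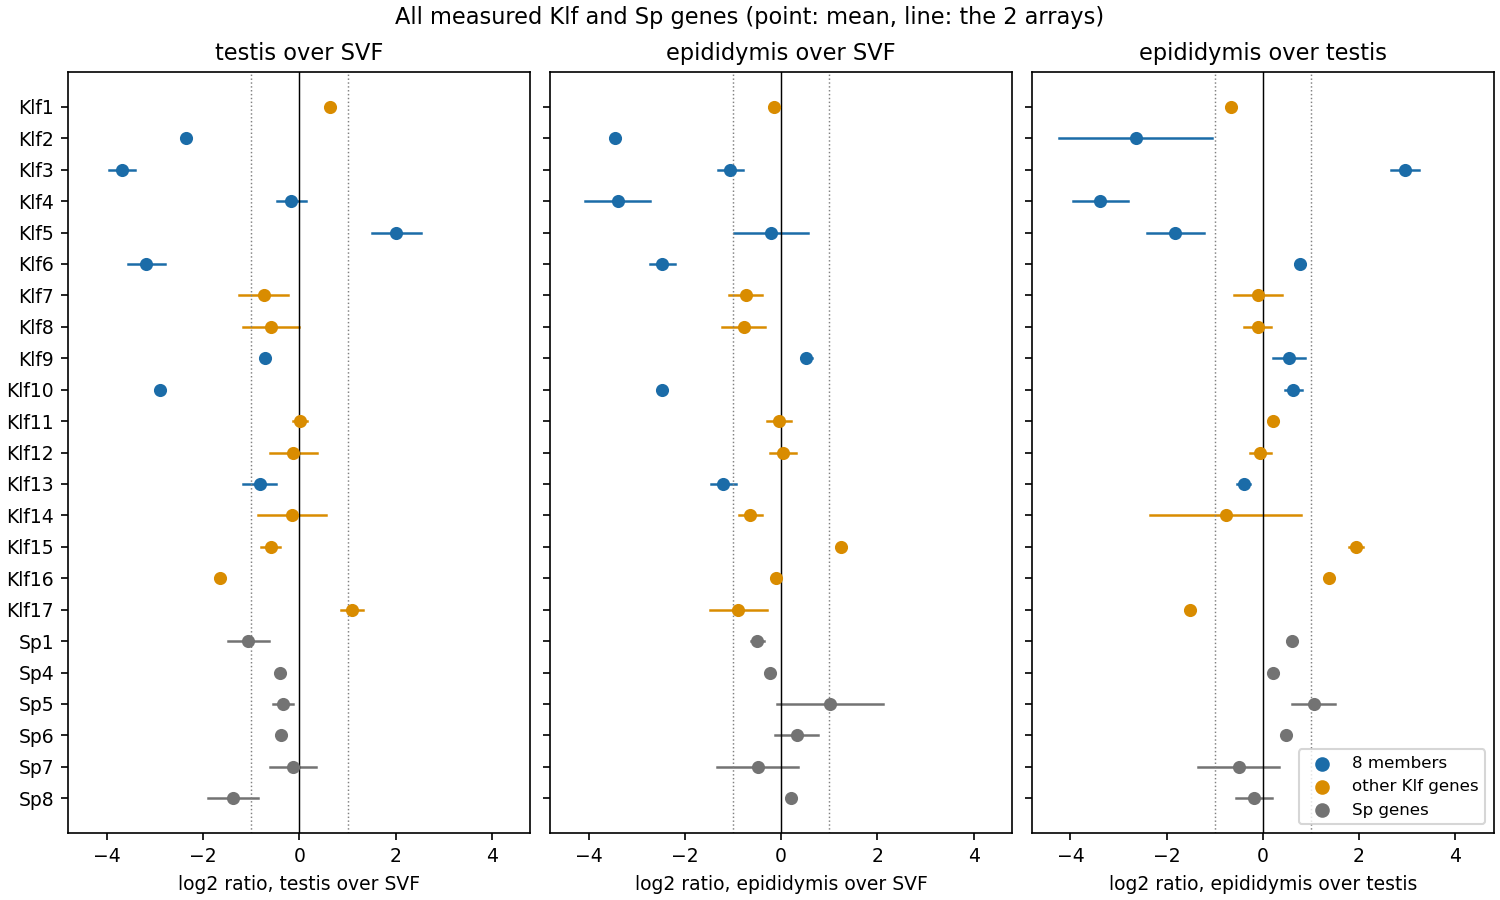
Mean log2 ratio (points) and both array values (ends of the lines) of the 17 Klf genes and 6 Sp genes measured, by comparison, with the 8 members in blue, other Klf genes in orange, Sp genes in grey and dotted lines at 2-fold. Members reach -3.69 for testis over SVF, where the lowest value of the other Klf genes is -1.65 and that of the Sp genes is -1.39. The members were chosen with earlier ratios of the same arrays in view, so this gap can follow from the choice.

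Among genes of proteins that Klf factors bind, the CtBP gene Ctbp1 was lower in testis than in SVF (-1.46 ± 0.05). Ctbp1 was also higher in epididymis than in testis (1.18 ± 0.13). The other CtBP gene of the list, Ctbp2, did not meet the rule and had means of 0.51, -0.32 and -0.68 in the 3 comparisons. Those of Sin3a were -0.44, -0.31 and 0.20. Of the 11 corepressor and coactivator genes measured, 1 was higher and 1 lower in testis than in SVF, beside 20.7% and 16.0% of all named genes. The higher one was the acetyltransferase gene Kat2b (3.23 ± 0.68), which was lower in epididymis than in testis (-2.71 ± 1.91). In epididymis 1 of 11 was lower than in SVF, the Sin3 complex gene Sap30 (-1.63 ± 0.20), beside 8.68% of all named genes. Against testis, 1 was higher and 4 were lower in epididymis, beside 14.3% and 18.0% of all named genes. The lower ones included Sap30 (-1.98 ± 0.08), Sap18 (-1.41 ± 0.45) and Hdac1 (-1.19 ± 0.05). Of 3 ubiquitin ligase genes whose products act on Klf proteins, Smurf1 (2.37 ± 0.15) and Fbxw7 (1.27 ± 0.31) had higher values in testis than in SVF. Both had lower values in epididymis than in testis, at -1.61 ± 0.43 and -1.34 ± 0.25, and Wwp1 did not meet the rule in any comparison.

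Erk5 signalling through Mef2 induces Klf2 and Klf4 in endothelium, and of 5 genes measured, Mef2c was lower in testis (-1.88 ± 0.16) and in epididymis (-2.29 ± 0.19) than in SVF and Mef2d was lower in testis (-1.15 ± 0.14). The kinase gene of Erk5, Mapk7, had means of -0.37, -0.50 and 0.04. Of 6 TGF-beta pathway genes upstream of Klf10, Tgfb1 (-1.44 ± 0.08), Tgfbr2 (-2.01 ± 0.28) and Smad3 (-1.82 ± 0.63) were lower in testis than in SVF and Tgfbr1 was higher (2.35 ± 0.95). In epididymis Tgfbr2 was lower than in SVF (-1.58 ± 0.40), and Smad3 was higher (2.30 ± 0.06) and Tgfbr1 lower (-2.15 ± 0.02) than in testis. None of 5 hormone receptor genes upstream of Klf9 (Nr3c1, Thra, Thrb, Esr1 and Pgr) met the rule in any comparison. Over all named genes, 47.1% met it in at least 1. By comparison, 20.7% of all named genes were higher and 16.0% lower in testis than in SVF. In epididymis 8.68% were lower than in SVF, and 14.3% were higher and 18.0% lower than in testis. Thra had 0.89 and 1.33 for epididymis over testis (mean 1.11 ± 0.31), short of 2-fold on array 1.

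Genes described as Klf targets in endothelium, lymphocytes or stroma were mostly on the SVF side. Of 6 endothelial and lymphocyte targets, 6 were lower in testis and 5 in epididymis than in SVF (medians -3.91 and -3.35). Of all named genes, 16.0% were lower in testis than in SVF. In epididymis 8.68% were lower and 10.2% higher than in SVF. The thrombomodulin gene Thbd had -5.23 ± 0.24 in testis and -4.22 ± 0.08 in epididymis, the lymphocyte exit receptor gene S1pr1 -4.51 ± 0.23 and -4.02 ± 0.57, and Ccl5 -4.36 ± 0.50 and -4.90 ± 0.20. The endothelin gene Edn1, which Klf2 represses in endothelium, had -3.45 ± 0.14 in testis. In epididymis it had -0.91 and -1.94 (mean -1.42 ± 0.73), the one target of the 6 without a call there, and it was higher in epididymis than in testis (1.16 ± 0.03). Of 5 stromal targets of Klf6, 5 were lower than in SVF in each tissue (medians -3.17 and -2.55), led by the urokinase gene Plau at -6.98 ± 0.00 in testis and -4.33 ± 0.57 in epididymis. Of 9 adipogenesis regulators, 5 were lower in testis than in SVF. They were Cebpb (-4.85 ± 0.20), Cebpd (-4.50 ± 0.59), Gata2 (-2.44 ± 0.16), Gata3 (-1.82 ± 0.27) and the fat cell gene Fabp4 (-5.14 ± 1.04). In epididymis 3 of the 9 were lower and 2 were higher than in SVF, and the higher ones were Gata3 (2.03 ± 0.31) and Srebf1 (1.14 ± 0.18). Pparg itself had -0.49 ± 0.15 in testis and -0.18 ± 0.58 in epididymis. Of 5 pluripotency partners of Klf4, Myc was lower than in SVF in testis (-4.07 ± 0.08) and in epididymis (-4.03 ± 0.57). Pou5f1, Sox2, Nanog and Esrrb did not meet the rule in any comparison. For Sox2 and Nanog the 2 arrays had opposite signs in each dye swap. For testis over SVF, Sox2 had -4.96 and 3.55 and Nanog had -0.63 and 1.15. Pou5f1 had -4.27 and -0.22 for epididymis over testis. The missing calls of Sox2, Nanog and Pou5f1 thus do not show equal levels. These lists were made with earlier results of the arrays known and support no direction.

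Immediate early genes and markers of SVF cell types were also lower than in SVF for many of their genes, in testis beside Klf2, Klf3, Klf6 and Klf10 and in epididymis beside Klf2, Klf4, Klf6 and Klf10. Of 13 immediate early genes, 11 were lower in testis and 9 in epididymis than in SVF, with medians of -4.66 and -4.19 and a range of means from -6.94 to -0.03 in testis and from -6.67 to -0.04 in epididymis. Junb and Egr3 did not meet the rule against SVF in either tissue. Of all named genes, 16.0% were lower in testis and 8.68% in epididymis than in SVF. Of the endothelial markers the medians were -1.94 in testis and -2.08 in epididymis, of the macrophage markers -4.69 and -3.45, of 5 T cell markers -1.32 and -1.55 (4 lower in testis and 3 in epididymis), and of the mesenchymal progenitor markers -4.23 and -1.90. Between epididymis and testis, Klf4 (-3.37), Klf5 (-1.82) and Klf2 (-2.64, with -4.23 and -1.05 on its arrays) were lower in epididymis. Klf3 (2.95) was higher there, and Klf6 (0.77), Klf10 (0.64), Klf9 (0.55) and Klf13 (-0.40) had no call. Of the 13 immediate early genes 6 were higher and 0 lower in epididymis than in testis (median 1.00), of the macrophage markers 3 of 5 were higher, of the progenitor markers 4 of 6, of the T cell markers 1 of 5 and of the endothelial markers 0 of 6, with none lower in any of these lists. Epithelial markers were higher in epididymis than in testis for 7 of 7 genes (median 3.02). Of all named genes, 14.3% were higher and 18.0% lower in epididymis than in testis. The share of any cell type or of the early response in the Klf ratios was not tested.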

How the data were processed

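The data are the authors' deposited values of 25344 probes on 6 two-colour arrays, which were read as log2 ratios. How they were background-corrected and normalized, and the base and direction of the logarithm, is not given in the sources used. Deposited values ran from -8.41 to 10.25, and base 10 would exceed a scanner's range, whereas log2 over the natural logarithm is a convention. Of 21112 annotated probes, 20456 were named by gene ID and 220 by symbol from the mouse gene table of GRCm38.p6, and 235 kept the annotated name. Another 171 with non-mouse symbols, 30 with several genes and 4232 without annotation were left unnamed. The sign of each dye-exchanged array was turned, probes of a gene were averaged, and the median SD between arrays over named genes was 0.33 to 0.37. No test between tissues exists with 1 RNA sample each. Simulated data with known changes were used to check the mean ratio and the loop estimate. Their noise was normal and independent between arrays, without a dye effect. Calls by the 2-fold rule were counted in them but not checked.

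The members and gene lists were chosen with earlier results of these data known. Named genes were all members and all other Klf and Sp genes, up to 4 genes of a list with the largest ratio in size among those meeting the rule, and the 3 nearest genes of each member. Genes named besides these, to which the upstream and target genes without a call belong, were chosen after their values were seen. Alternatives were median centring, the loop estimate, the median over probes or the probe with the smallest spread, a 2-fold mean without the demand on single arrays, a 4-fold rule on both arrays, each array left out, and natural logarithms. Python 3.11.15 with pandas 2.3.3 was used. The number of arrays limits the precision.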

Additional observations from a re-analysis of the deposited data

How the results depend on the processing

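The 8 members kept the sign of each mean in the 3 comparisons under every alternative run, with the exceptions of Klf4 for testis over SVF, at 0.13 without the second array, and Klf5 for epididymis over SVF, at 0.56 without the second array, neither of which had met the 2-fold rule. At 4-fold on both arrays, Klf5 no longer counted as higher in testis than in SVF, leaving 0 such members, and 1 member (Klf4) in place of 3 was lower in epididymis than in testis. With the probe of smallest spread, Klf6 joined Klf3 as higher in epididymis than in testis (2 members). The members lower in epididymis than in SVF numbered 6 in place of 4 by 2-fold on the mean alone (Klf3 and Klf13 added), and 5 with median centring, by the loop estimate and with either array left out. Those lower in testis than in SVF numbered 5 in place of 4 without the first array (Klf13 added). The median of the members for testis over SVF was -1.33 by the loop estimate and ranged from -1.75 to -1.59 with an array left out. For epididymis over testis it ranged from -0.023 to 0.068, and so had no settled sign. Klf2 for epididymis over testis was -1.05 without the first array, -4.23 without the second and -2.13 by the loop estimate. Read as natural logarithms, all log2 ratios become 1.44 times as large in size. No paired analysis was possible because each tissue is 1 RNA sample. Animals were not replicated, and ratios near background cannot be told from reliable ones without signal values.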
